A study of Mus musculus with 4 samples.

Results

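The semaphorins, plexins and neuropilins of the embryonic mouse lung were described cell class by cell class. Members were all rows of the deposited expression files with a symbol made of Sema, a digit and a letter, of Plxn, a letter and an optional digit, or Nrp1 or Nrp2. The rule gave 31 of the 20674 genes listed in any file. These were 7 secreted semaphorins (Sema3a to Sema3g), 13 membrane-anchored semaphorins (classes 4 to 7), 9 plexins and 2 neuropilins, and each of the 31 was listed in all 4 files.

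The data were single-cell RNA-seq libraries from C57BL/6 lungs. At E17.5 (E for embryonic day), live cells of 3 wild-type lungs gave 3 libraries, which served as the replicates. At E16.5, 1 lung carrying αSMA-GFP, Tbx4-Cre and Rosa26-tdTomato gave 1 library of cells sorted for both reporters. Tbx4-Cre marks cells with a history of Tbx4, a transcription factor of lung mesenchyme, and αSMA-GFP reports the promoter of the smooth muscle actin gene Acta2, so the sort holds contractile mesenchyme and not the whole lung. Stage and sort cannot be told apart. Levels below are in CPM (counts per 1000000): each cell's value was divided by the cell's sum, scaled to 1000000 and averaged over the cells of a class in a library. A mean ± SD is over the 3 lungs and measures only the spread between these samples, for which the labels give no litter. Where 1 level stands for a whole class of the E17.5 lungs, also as a level "or less", it is the mean over the 3 lungs.

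Semaphorins are guidance cues first known from growing axons. Plexins are their receptors and signal to the cytoskeleton, and neuropilins bind the secreted class 3 semaphorins and hand them to plexins. In embryonic lung the family is known from airway branching, vessel growth and nerve entry. Neuropilins also bind VEGF, which makes Nrp1 a receptor component of endothelial cells in its own right.

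The libraries held 2140 to 3085 cells with median depths of 7201 to 12007 unique molecular identifiers (UMIs, tags that count captured RNA molecules), and library pairs shared 7 to 13 cell barcodes. After removal of called doublets, the E17.5 cells comprised 1863 epithelial, 1367 endothelial, 1937 mesenchymal and 2180 immune cells and 32 mesothelial cells. Cells were clustered on genes that exclude all 31 members, so the levels below took no part in defining the classes. Class names end in "-like" because they rest on marker genes. In the sort, Acta2 stood at 3080 CPM against 321 to 348 CPM in the lungs, and Tbx4 at 43.7 CPM against 11 to 14.8 CPM, and 2989 of its 3054 cells after doublet removal were mesenchymal. The 8 defining markers of each compartment, summed, stood in each other compartment at 1.77% to 4.41% of their level at home. This range is used as a rough scale for RNA carried over between droplets, and other sources of these marker counts were not tested. Shares of a member's highest level within that range are not read as expression.

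Each member was placed by its highest compartment among the 4. Endothelium was highest for 10 members, mesenchyme for 9, epithelium for 7 and immune cells for 5. For 26 of the 31 the 3 lung values of the highest compartment lay above all 9 values of the others. The 5 exceptions were Nrp2, Plxna4, Sema3c, Sema4b and Sema4g. Neither the share of all genes without such overlap nor their split by highest compartment was computed. The count of 26 and the split of the members are therefore a description only. The 26 take in narrow margins, such as Plxnb2 at 39.5 CPM in epithelium against 36.5 CPM in immune cells. Of the 31, 28 reached 10 CPM in some class with at least 20 cells in every library of a stage. Plxnb3 reached 11.04 CPM only in neutrophil-like cells, which had 9 to 21 cells a lung, and Plxna3 (2.505 CPM in mesenchyme, its highest compartment) and Sema4g (2.83 CPM in epithelium) reached it in no class.

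**Figure D1:**
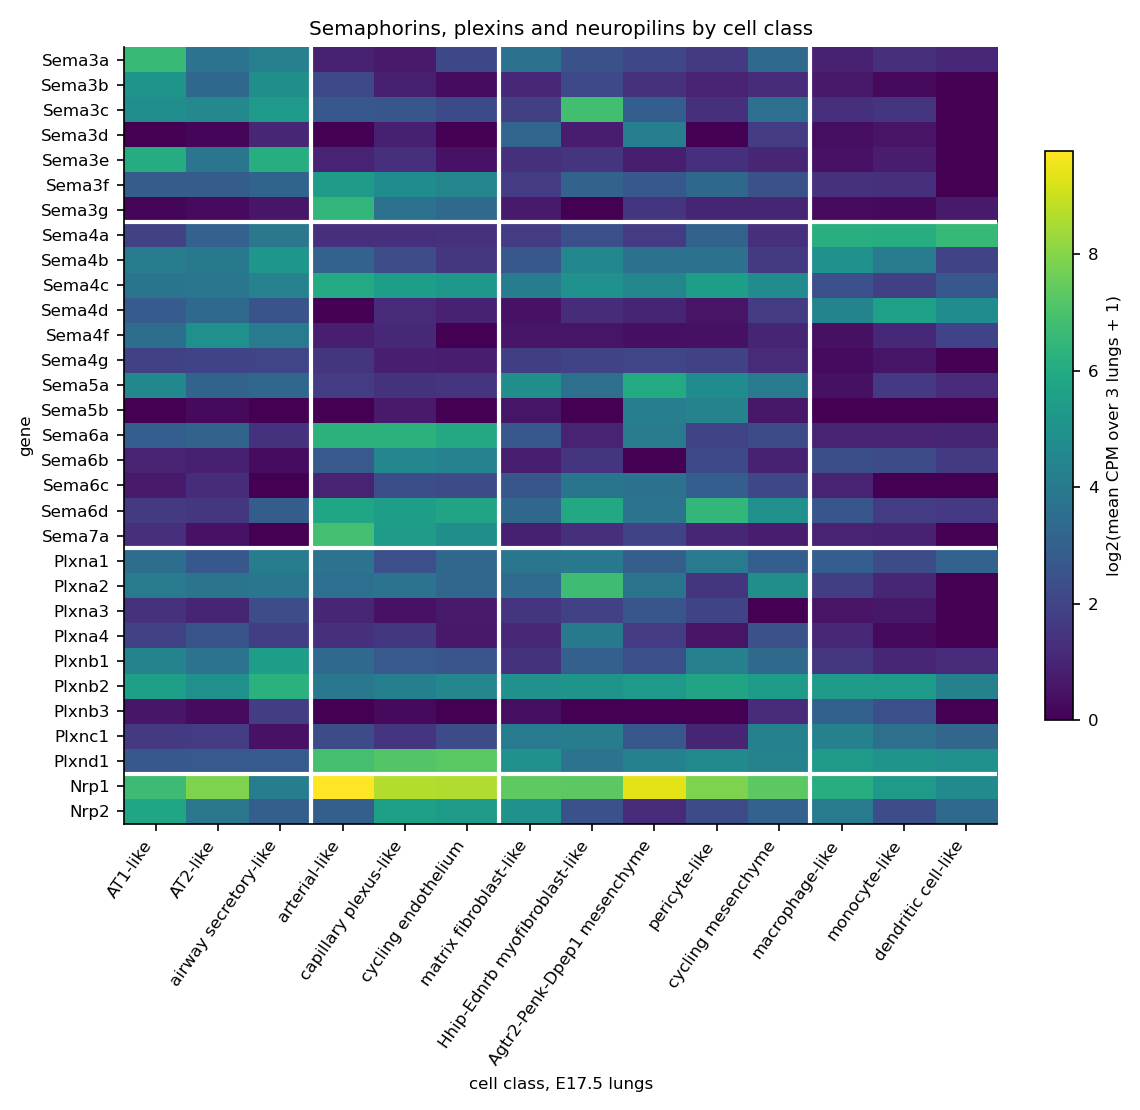
Mean level of each of the 31 members (rows, ordered as secreted ligands, membrane ligands, plexins and neuropilins) in 14 cell classes of the E17.5 lungs (columns, ordered as epithelial, endothelial, mesenchymal and immune), coloured by log2(mean CPM over 3 lungs + 1). Sema3a and Sema3e are bright in AT1-like cells, Sema3g and Sema7a in arterial-like cells, Sema3c and Plxna2 in Hhip-Ednrb myofibroblast-like cells, and Sema4a in the immune classes.

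Each compartment was then tested against the mean of the others with limma on log2(CPM + 10), with the lung as a block and Benjamini-Hochberg adjustment over 4187 genes that took no part in clustering and had a mean of at least 10 CPM. A fold on this scale understates changes of low genes. The 4 contrasts use the same 12 class means, so they are not independent of one another. Only 15 of the 31 members passed the level filter. Of these, 7 (Sema3a, Sema3e, Sema4a, Sema5a, Sema6a, Sema7a and Plxna2) averaged under 10 CPM over the compartments other than their highest and passed only through that one, so their differences are given without a p and the counts over members as a description. In epithelium 7 of 15 were higher and 7 lower, against 26.3% and 49.7% of all genes tested. In endothelium 7 were higher and 7 lower (all genes 52.0% and 27.1%). In mesenchyme 6 were higher and 7 lower (41.0% and 36.0%), and in immune cells 3 were higher and 11 lower (29.4% and 57.0%). The median log2 difference of the members was 0.09 in epithelium, -0.13 in endothelium, -0.16 in mesenchyme and -1.01 in immune cells, where all tested genes had medians of -0.14, 0.16, 0.03 and -0.26. Median-of-ratios scaling brought the medians of all genes to between -0.06 and -0.05 and turned the split of calls over all genes in endothelium from 2176 higher and 1136 lower to 1381 and 1759. In immune cells that split went from 1231 and 2385 to 1686 and 1865, while the members' counts became 7 and 8 in endothelium and 4 and 11 in immune cells.

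Epithelium was the highest compartment for 3 of the 7 secreted ligands, Sema3a, Sema3b and Sema3e. Of the other 4, Sema3c was as high in mesenchyme, and Sema3f did not pass when genes from 1 CPM were tested. Sema3d stood at 0.12 CPM in epithelium against 6.12 CPM in mesenchyme, and Sema3g at 0.19 CPM against 18.8 CPM in endothelium. Each averaged 1 CPM only through that highest compartment, so both are given without a p. Sema3a, a repellent that acts through neuropilin 1 and A-type plexins, stood at 51.6, 58.1 and 52.3 CPM in the epithelium of the 3 lungs. Mesenchyme held 8.8, 8.2 and 6.3 CPM of Sema3a, and endothelial and immune cells 1.22 and 0.887 CPM. All 3 epithelial values lay above every other, by 2.30 ± 0.067 (SE) in log2 over the mean of the other compartments. The endothelial and immune shares, 2.3% and 1.6% of the epithelial level, were within the carry-over range, and the mesenchymal share of 14.4% was not. Sema3e, a ligand that binds Plxnd1 without a neuropilin, stood at 39.6, 52.0 and 34.9 CPM in epithelium and at a mean of 1.51 CPM or less in each other compartment. The log2 difference was 2.23 ± 0.071, and its shares elsewhere were 3.6% or less.

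Other members of the epithelial group fell below the level filter. Sema3b, a secreted ligand, stood at 20.9, 25.2 and 19.2 CPM in epithelium and at 1.72 CPM or less elsewhere. Sema4f, a membrane ligand, stood at 19.1, 17.1 and 21.3 CPM and at 0.883 CPM or less elsewhere. With genes tested from 1 CPM upward, both were called higher in epithelium (log2 difference 1.52 ± 0.063 for Sema3b and 1.44 ± 0.060 for Sema4f). Sema4f passed that filter only through epithelium, so its direction was set by it. Plxnb1, the receptor of Sema4d, had 17.9 ± 5.61 CPM in epithelium (n = 3) and was likewise higher there (0.96 ± 0.085). Endothelium held 5.89 CPM and mesenchyme 5.28 CPM of Plxnb1, shares above the carry-over range. The epithelium also carried Sema3c at 26.0 ± 2.26 CPM, called higher by 0.94 ± 0.073, although mesenchyme held as much (29.4 ± 4.40 CPM) and the lung values of the 2 compartments overlapped. Sema5a was higher by 0.57 ± 0.064 on the same contrast, at 14.9 ± 0.655 CPM, while mesenchyme held 26.3 ± 1.70 CPM. Both therefore stood above the mean of the other compartments and not above each of them.

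Endothelial cells carried the receptor of Sema3e and a set of membrane ligands. Plxnd1, the endothelial plexin, stood at 137.3, 153.7 and 139.8 CPM in endothelium, with 36.8 ± 1.91 CPM in immune cells, 23.5 ± 2.36 CPM in mesenchyme and 5.55 CPM in epithelium. No endothelial value overlapped with another compartment, and the log2 difference was 2.41 ± 0.065 (limma adjusted p = 8.75e-22). In epithelium Plxnd1 was lower by the same test (-2.004 ± 0.065, adjusted p = 5.16e-20). The Plxnd1 level in immune cells was 25.7% of the endothelial one, well over the carry-over range.

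Sema6a, a membrane ligand of A-type plexins, stood at 70.8, 70.7 and 77.8 CPM in endothelium and at 6.81 CPM or less in the other compartments tested (2.57 ± 0.068). Mesothelial cells, too few to test, held Sema6a as well and are given below. Sema7a, a ligand held in the membrane by a lipid anchor, stood at 50.1, 36.9 and 51.6 CPM in endothelium and at 1.19 CPM or less in the other compartments tested (2.35 ± 0.066). Both had endothelial values far from those of the other compartments tested. The shares of Sema7a in those compartments (1.8% to 2.6%) were within the carry-over range. Sema3g, which binds neuropilin 2 best, stood at 21.8, 18.7 and 16 CPM and at 0.588 CPM or less elsewhere. Sema3f, another neuropilin 2 ligand, stood at 20.1, 27.7 and 30.1 CPM with 6.59 CPM in epithelium, and Sema6b at 24.8, 19.1 and 15.1 CPM with 4.497 CPM in immune cells. These 3 were under the level filter and were higher in endothelium when genes from 1 CPM were tested, by 1.48 ± 0.056, 1.36 ± 0.072 and 1.29 ± 0.079. Sema3g passed the filter at 1 CPM only through endothelium, so its direction was set by it.

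The neuropilins themselves were broader. Nrp1 stood at 484.4, 403.4 and 463.2 CPM in endothelium, 222 ± 4.06 CPM in mesenchyme, 158 ± 14.0 CPM in epithelium and 49.0 ± 2.11 CPM in immune cells. Its order across compartments was the same in every lung, with no overlap between neighbours. Against the mean of the others Nrp1 was higher in endothelium (1.80 ± 0.050, adjusted p = 1.75e-21) and lower in immune cells (-2.15 ± 0.050, adjusted p = 2.33e-23). Nrp2 had 40.3 ± 4.90 CPM in endothelium and 32.2 ± 6.94 CPM in epithelium, and those lung values overlapped. It had 17.2 ± 3.13 CPM in mesenchyme and 12.1 ± 2.98 CPM in immune cells, which overlapped too. Sema6d and Sema4c, both membrane ligands, were shared by endothelium (46.5 ± 2.49 and 43.2 ± 2.35 CPM) and mesenchyme (30.1 ± 1.77 and 23.3 ± 1.66 CPM). They were called higher in both, by 1.57 ± 0.067 and 1.28 ± 0.070 in endothelium and by 0.91 ± 0.067 and 0.38 ± 0.070 in mesenchyme.

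**Figure D2:**
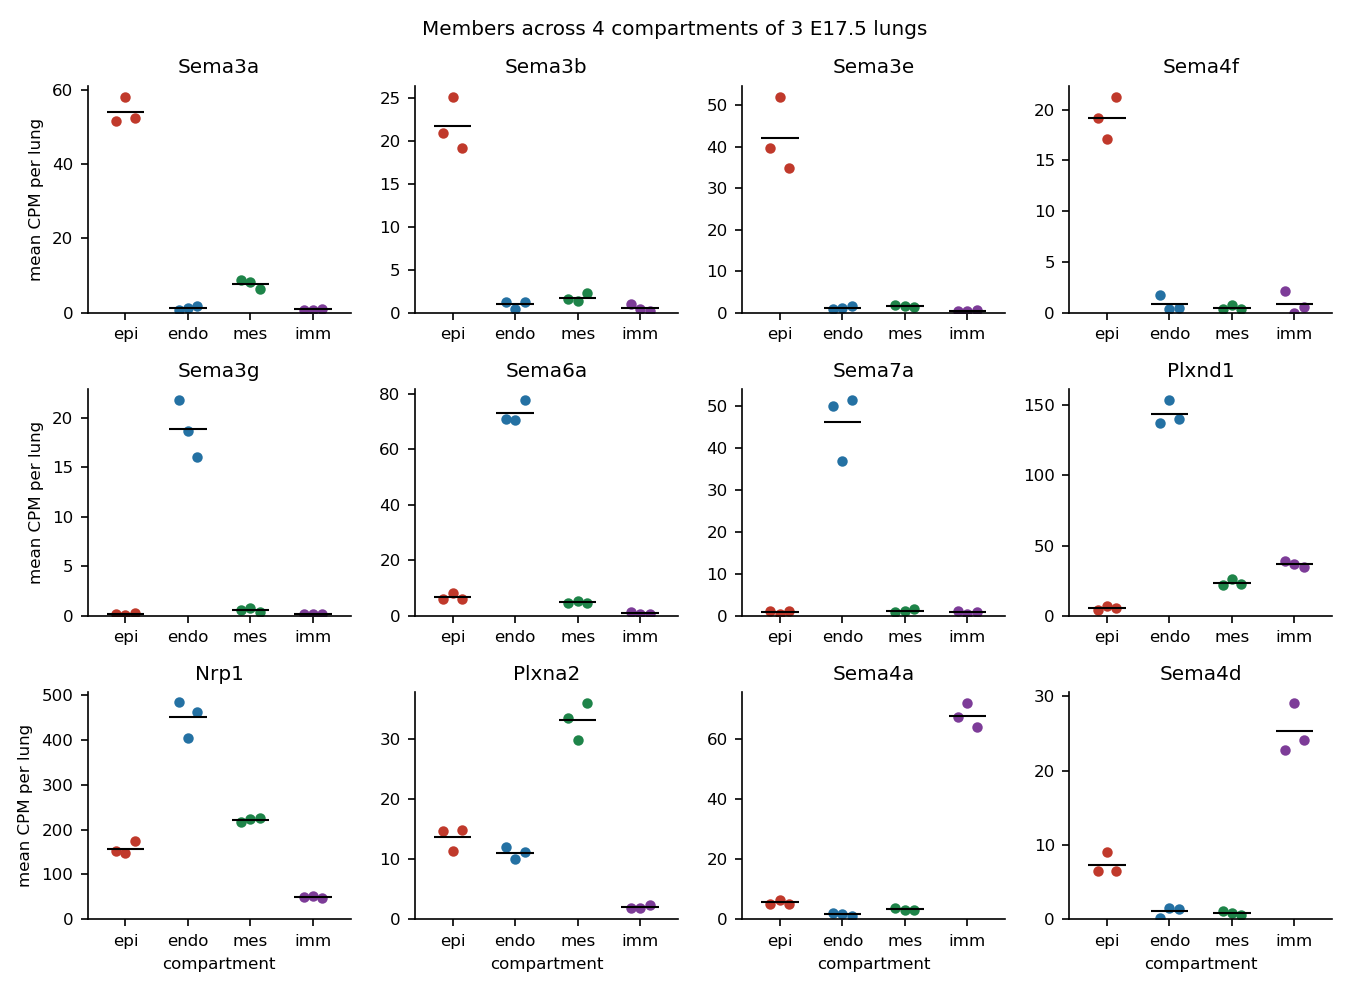
Mean CPM per lung (points, 3 lungs in order 1 to 3 within each column) of 12 members in epithelium (epi), endothelium (endo), mesenchyme (mes) and immune cells (imm) at E17.5, with horizontal lines at the mean and axes starting at 0. The 3 epithelial points of Sema3a lie between 51.6 and 58.1 CPM, above all others, and the 3 endothelial points of Plxnd1 lie between 137.3 and 153.7 CPM.

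Mesenchyme was the highest compartment for all 4 A-type plexins, although its Plxna4 values overlapped with those of epithelium. Plxna2, a receptor of class 6 semaphorins and of neuropilin-bound class 3 semaphorins, stood at 33.6, 30.0 and 36.1 CPM there, 13.7 ± 1.98 CPM in epithelium, 11.1 ± 1.01 CPM in endothelium and 2.02 CPM in immune cells. The mesenchymal values lay above all others (1.25 ± 0.066). Sema5a, which carries thrombospondin repeats, stood above the mean of the others as well (1.296 ± 0.064). Sema3d, Sema5b, Sema6c, Plxna1, Plxna3, Plxna4 and Sema4g were under the level filter, at 2.505 to 12.8 CPM in mesenchyme. All 7 were higher there when genes from 1 CPM were tested, by 0.17 to 0.65 in log2. Sema3d, Sema5b and Plxna3 averaged under 1 CPM over the other compartments. They passed that filter only through mesenchyme, so their direction was set by it.

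Immune cells were highest for 3 of the 6 class 4 ligands, Sema4a, Sema4b and Sema4d, and lower than the mean of the others for Sema4c (-1.36 ± 0.070), Sema4f (-0.46 ± 0.060) and Sema4g (-0.24 ± 0.046), the last pair tested from 1 CPM. Sema4f passed that filter only through epithelium. Sema4a, a costimulator of T cells, stood at 67.3, 72.1 and 64.0 CPM in immune cells and at 5.55 CPM or less elsewhere (2.54 ± 0.065). Sema4d, known as CD100 and shed by leukocytes, stood at 22.8, 29.1 and 24.1 CPM with 7.32 ± 1.44 CPM in epithelium, and was higher in immune cells when genes from 1 CPM were tested (1.47 ± 0.065). Neither overlapped with another compartment. Plxnc1, the plexin that binds Sema7a, had 17.1 ± 2.01 CPM in immune cells and 13.5 ± 1.32 CPM in mesenchyme, against 2.1 to 2.43 CPM in the compartments that remain. Plxnb3 had 5.54 CPM in immune cells and 0.432 CPM or less elsewhere. Plxnb2, the broadest plexin of the family, ranged only from 18.0 CPM in endothelium to 39.5 CPM in epithelium.

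The start regions of 5 lineage-marked members are shown as the sequence context of these levels, 2 of the epithelial and 3 of the endothelial set. Each is the 250 bases before the transcription start in RefSeq (build GRCm38.p6; for the deposited files a build was not given in the sources used here), 5′ to 3′ on the gene's strand. Capitals mark the letters CCGGAA or CAGGAA on either strand, the core of sites for ETS factors, a family active in endothelium among other tissues.
Sema3a: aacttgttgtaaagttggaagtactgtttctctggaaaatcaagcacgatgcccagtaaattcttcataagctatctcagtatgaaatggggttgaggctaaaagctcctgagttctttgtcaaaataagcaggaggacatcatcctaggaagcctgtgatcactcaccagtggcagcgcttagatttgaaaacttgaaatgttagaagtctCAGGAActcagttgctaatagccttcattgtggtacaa
Sema3e: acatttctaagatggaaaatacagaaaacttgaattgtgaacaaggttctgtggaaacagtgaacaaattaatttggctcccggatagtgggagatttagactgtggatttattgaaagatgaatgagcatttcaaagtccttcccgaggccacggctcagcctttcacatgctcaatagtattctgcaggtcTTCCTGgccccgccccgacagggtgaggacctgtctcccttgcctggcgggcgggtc
Sema3g: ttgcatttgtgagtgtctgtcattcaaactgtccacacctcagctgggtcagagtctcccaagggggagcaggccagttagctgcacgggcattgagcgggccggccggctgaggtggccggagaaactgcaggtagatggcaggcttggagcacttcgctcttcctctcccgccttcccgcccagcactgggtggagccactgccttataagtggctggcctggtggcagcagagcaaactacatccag
Sema7a: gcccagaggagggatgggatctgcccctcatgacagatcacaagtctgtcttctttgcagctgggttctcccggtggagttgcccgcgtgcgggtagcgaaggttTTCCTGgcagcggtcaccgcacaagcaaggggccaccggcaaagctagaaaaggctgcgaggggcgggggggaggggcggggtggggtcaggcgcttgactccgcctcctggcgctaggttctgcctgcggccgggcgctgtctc
Plxnd1: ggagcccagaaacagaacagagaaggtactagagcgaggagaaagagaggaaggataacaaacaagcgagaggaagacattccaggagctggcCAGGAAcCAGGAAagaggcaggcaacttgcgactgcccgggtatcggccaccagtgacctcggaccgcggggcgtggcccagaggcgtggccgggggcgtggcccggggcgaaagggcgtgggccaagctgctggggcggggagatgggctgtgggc
They lie at chr5:13396534-13396783 (plus strand, Sema3a), chr5:14025026-14025275 (plus, Sema3e), chr14:31217623-31217872 (plus, Sema3g), chr9:57939862-57940111 (plus, Sema7a) and chr6:115995006-115995255 (minus, Plxnd1). The Sema3a and Sema3e windows hold 2 and 7 CpG pairs, and those of Sema3g, Sema7a and Plxnd1 hold 8, 17 and 16. The ETS letters occur 2 times in the Plxnd1 window and 1 time each in those of Sema7a, Sema3a and Sema3e, and do not occur in that of Sema3g. Over all 32851 RefSeq start windows of this length, 35.1% hold these letters, and 12 of 37 windows of the 26 members found in the table do. Letters of 3 other factor families were searched on either strand: GGAATG (TEAD) was in 3 of the 37 windows and 12.6% of all, CAAGTG (NKX2-1) in 1 and 11.6%, and ACAATG (SOX) in 5 and 10.7%. A match is a description of these letters and not a bound site.

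Within the alveolar epithelium, Sema3a, Sema3b and Sema3e were higher in alveolar type 1-like (AT1-like) cells, the flat gas-exchange cells (896 cells), than in alveolar type 2-like (AT2-like) cells, the surfactant makers (857 cells). Of 13 members tested 9 were called, against 38.2% of 3721 genes. Of these 7 were higher in AT1-like cells, where 21.7% of all genes were, and 2 were lower. The members' median log2 difference was 0.45 and that of all genes 0.02. Sema3b and Sema5a passed the level filter only through AT1-like cells and are given without a p.

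Sema3a stood at 92.9, 102.9 and 97.6 CPM in AT1-like cells and at 13.9, 13 and 10.1 CPM in AT2-like cells (2.27 ± 0.10, limma adjusted p = 1.5e-14). Sema3e stood at 68.6, 74.5 and 53.8 CPM against 10.6, 19.0 and 10.7 CPM (1.70 ± 0.11, adjusted p = 8.05e-12). Sema3b stood at 32.8, 34.7 and 30.7 CPM against 9.8, 9.1 and 7.2 CPM (1.19 ± 0.11). For all 3 ligands each AT1-like value lay above each AT2-like value. Sema5a followed the same direction, at 22.6 ± 1.29 against 7.55 ± 1.62 CPM (0.90 ± 0.12). Sema3c did not pass the test (26.8 ± 1.84 against 23.6 ± 2.48 CPM), nor did Sema3f when genes from 1 CPM were tested (0.00067 ± 0.12, limma adjusted p = 0.998).

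The neuropilins went opposite ways between these cells. Nrp2 stood at 45.4, 48.1 and 65.3 CPM in AT1-like and 9.3, 14.1 and 17.9 CPM in AT2-like cells (1.41 ± 0.11, limma adjusted p = 1.78e-10). Nrp1 stood at 91.6, 109.9 and 107.8 CPM in AT1-like and 223.8, 216.9 and 259.3 CPM in AT2-like cells (-1.11 ± 0.072, adjusted p = 1.08e-11). No lung overlapped for either gene. Sema4f, a ligand, was lower in AT1-like cells, at 10.3, 10.2 and 10.9 against 28.7, 26.1 and 31.7 CPM (-0.92 ± 0.11, adjusted p = 5.33e-07), and so was Sema4a when genes from 1 CPM were tested (-0.47 ± 0.11, adjusted p = 0.000443). Of the receptors, Plxnb2 was higher in AT1-like cells (44.6 ± 5.47 against 29.2 ± 4.11 CPM, 0.48 ± 0.11, adjusted p = 0.00148). Plxnb1 was called higher (0.45 ± 0.12, adjusted p = 0.00529), a call lost without lung 1 (adjusted p = 0.103).

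The AT1-like cells formed 3 clusters, and the class 3 ligands differed along them. Sema3a stood at 149 ± 18.2 CPM in the 322 cells led by Msln, Aqp5 and Ager, at 87.0 ± 2.99 CPM in the 262 cells led by Clic3 and Akap5, and at 58.2 ± 5.67 CPM in the 312 cells led by F3 and Krt18. Sema3e followed at 94.9, 60.8 and 41.9 CPM, and Nrp2 at 79.6, 43.0 and 34.3 CPM. Sema3c ran the other way, from 12.7 ± 7.89 CPM in the first of these to 52.3 ± 8.52 CPM in the last. The last cluster also holds AT2 markers, and without it and its AT2-like counterpart (led by Clu and Etv5) the count of 7 higher and 2 lower was the same. In the 110 airway secretory-like cells Sema3e stood at 42.2, 84.3 and 73.9 CPM, Plxnb2 at 58.7, 87.3 and 81.3 CPM and Plxnb1 at 28.2, 64.5 and 34.3 CPM, with 27 to 43 cells a lung.

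**Figure D3:**
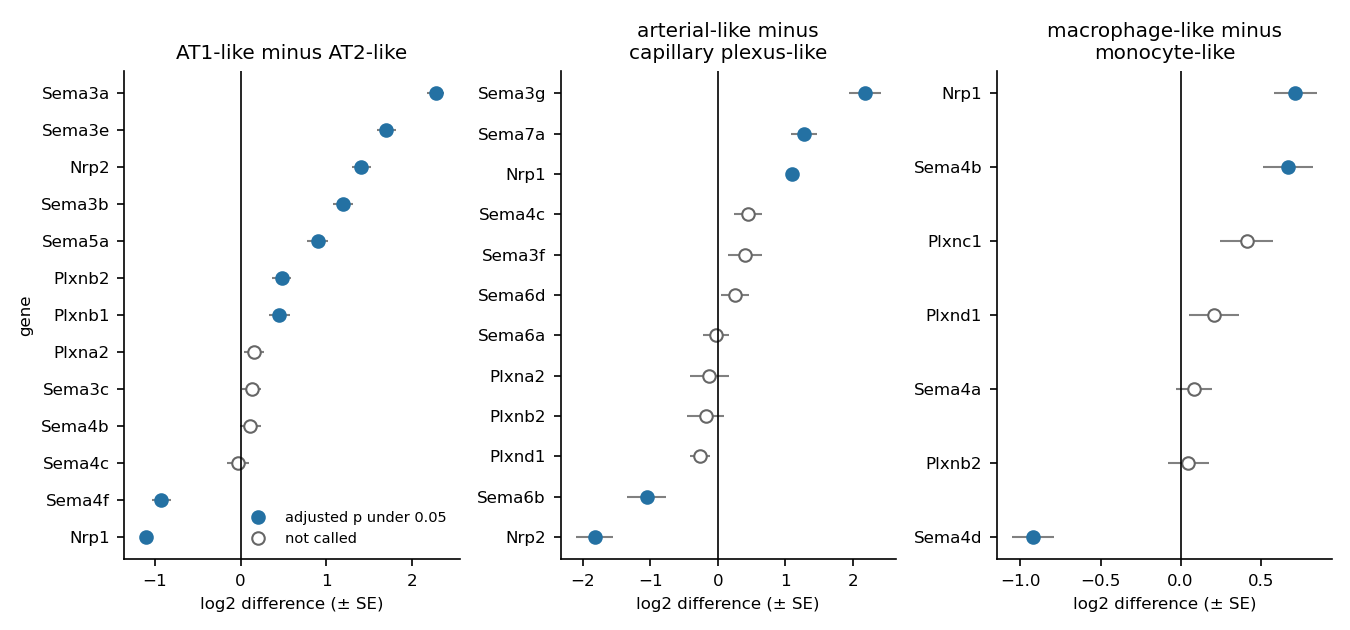
Differences in log2(CPM + 10) between AT1-like and AT2-like, arterial-like and capillary plexus-like, and macrophage-like and monocyte-like cells of 3 E17.5 lungs for every member tested; points are estimates, bars are ± SE, and filled points have a limma adjusted p under 0.05. Sema3a (2.27), Sema3g (2.17) and Sema4d (-0.92) lead the 3 panels by size of difference.

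Among endothelial cells, arterial-like cells (139 cells, Gja4, Gja5 and Sox17) were compared with capillary plexus-like cells (930 cells), a comparison added after the clusters were seen. Of 12 members tested, 3 were higher and 2 lower in arterial-like cells, against 6.91% and 6.79% of 3964 genes. The lower ones, Nrp2 and Sema6b, passed the level filter only through capillary plexus-like cells and are given without a p. Sema3g stood at 84.6, 84.4 and 87.6 CPM in arterial-like and 15, 14.8 and 5.3 CPM in capillary plexus-like cells (2.17 ± 0.23, limma adjusted p = 3.51e-09). Sema7a stood at 146.5, 96.8 and 102.7 against 38.6, 34.3 and 50.9 CPM (1.28 ± 0.19, adjusted p = 3.77e-06). Nrp1 stood at 981.4, 742.2 and 910.4 against 417.5, 382.9 and 403.5 CPM (1.10 ± 0.092, adjusted p = 4.18e-12). All 9 arterial-like values of these genes were above the matching capillary ones.

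Nrp2, which marks veins and lymphatic vessels in development, was lower in arterial-like cells, at 5.8, 14.4 and 0 CPM against 37.5, 47.9 and 52.2 CPM (-1.82 ± 0.28). The 0 came from the 46 arterial-like cells of lung 3, where a count of 0 allows up to 10.6 CPM. Sema6b was lower too (5.60 against 22.2 ± 6.00 CPM, -1.05 ± 0.28). Its call was lost without lung 1, without lung 3 and without cells of over 10% mitochondrial UMIs, and each of these left 1 lower member. Plxnd1, Sema6a, Sema6d, Sema4c, Sema3f, Plxna2 and Plxnb2 did not pass the test, at 118 ± 12.6 against 144 ± 11.8 CPM for Plxnd1.

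Car4-positive capillary cells, which line the alveoli, separated only at the finer clustering (60 cells, 16 to 24 a lung, led by Car4 and Apln), under the minimum of 20 a lung, so only values are given. Sema7a stood there at 123.5, 94.7 and 178.8 CPM, Nrp1 at 599.2, 761.2 and 774.9 CPM, and Sema3f at 73.7, 38.0 and 62.1 CPM. These cells held 7.97 ± 3.93 CPM of Sema3g and 9.81 ± 8.61 CPM of Nrp2. In a cluster of 50 cells led by Vwf and Vegfc, Nrp2 stood at 140.8, 90.5 and 68.2 CPM and Sema3g at 0 CPM, where a count of 0 allows up to 7.601 CPM.

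The mesenchymal classes carried different members. Each of 4 classes was tested against the mean of the others over 4003 genes, with 11 members tested. Matrix fibroblast-like cells (957 cells) had 2 higher and 6 lower (all genes 10.6% and 18.2%). Hhip-Ednrb myofibroblast-like cells (466 cells) had 4 higher and 3 lower (19.2% and 12.5%). Agtr2-Penk-Dpep1 mesenchyme (205 cells) had 2 higher and 4 lower (11.0% and 14.3%), and pericyte-like cells (198 cells) had 3 higher and 2 lower (20.0% and 18.2%). Of the 11, 4 passed the level filter only through their highest class (Sema3c, Plxna2 and Sema4b through Hhip-Ednrb myofibroblast-like cells and Nrp2 through matrix fibroblast-like cells). Their differences between these classes are therefore given without a p, and the counts over members as a description.

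Hhip-Ednrb myofibroblast-like cells carried Sema3c and Plxna2. Sema3c, a ligand of both neuropilins and of Plxnd1 known from cardiac outflow development, stood at 124.0, 108.8 and 102.1 CPM, against means of 6.51 CPM or less in the other 3 classes (3.22 ± 0.20). Plxna2 stood at 97.5, 103.0 and 116.3 CPM, against means of 12.5 CPM or less (2.74 ± 0.17). For both, the 3 values lay above all 9 of the other classes. Sema6d was also higher, at 65.7, 53.3 and 57.4 CPM (1.01 ± 0.16, limma adjusted p = 1.15e-05), and Sema4b stood at 22.5 ± 5.59 CPM (0.75 ± 0.19). Sema5a, Nrp1 and Plxnd1 were lower (-1.09 ± 0.19, -0.87 ± 0.089 and -0.62 ± 0.18, adjusted p 3.55e-05, 1.03e-08 and 0.00825). The Plxnd1 call was lost without lung 2 and at the finer clustering (adjusted p up to 0.409). Plxna4, tested from 1 CPM, was higher there (14.7 ± 3.80 CPM, 1.13 ± 0.14).

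Pericyte-like cells shared Sema6d but not the other genes of that class. Sema6d stood at 102.8, 74.6 and 84.3 CPM, above all 9 values of the other classes (1.67 ± 0.16, limma adjusted p = 1.92e-09). Plxna2 was at 1.74 CPM and Sema3c at 1.52 CPM, the 2 members counted lower (-1.66 ± 0.17 and -1.33 ± 0.20). Both passed the level filter only through Hhip-Ednrb myofibroblast-like cells, so their lower levels here are a description. Sema4c (42.4 ± 5.15 CPM) and Plxnb2 (51.4 ± 12.8 CPM) were higher (0.72 ± 0.16 and 0.50 ± 0.14, adjusted p 0.000584 and 0.00635). The Plxnb2 call was lost without lung 1 and without lung 3 (adjusted p up to 0.0978). Sema5b, tested from 1 CPM, was higher at 11.7, 25 and 23.2 CPM (1.07 ± 0.18), while Hhip-Ednrb myofibroblast-like cells held 0 UMIs of it in all 3 lungs, which allows up to 0.928 CPM. Without lung 3 the count of lower members in pericyte-like cells rose from 2 to 4.

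Agtr2-Penk-Dpep1 mesenchyme was the Nrp1 class. Nrp1 stood at 707.0, 680.9 and 588.5 CPM, against 164 ± 10.97 CPM in matrix fibroblast-like, 157 ± 4.47 CPM in Hhip-Ednrb myofibroblast-like and 238 ± 49.8 CPM in pericyte-like cells (1.80 ± 0.089, limma adjusted p = 1.1e-14). Sema5a stood at 66.6, 71.9 and 47.6 CPM, above every other value (1.25 ± 0.19, adjusted p = 9.01e-06). Nrp2, Sema6d, Sema3c and Plxna1 were lower (-0.81 ± 0.20, -1.19 ± 0.16, -0.73 ± 0.20 and -0.53 ± 0.17; adjusted p 1.42e-06 for Sema6d and 0.024 for Plxna1). Nrp2 and Sema3c passed the level filter only through another class, so their lower levels here are a description. Nrp2 lost its call without lung 2, and Sema3c without lung 3 and under 3 other alternatives. Plxna1 lost its call without lung 2, without lung 3 and under 2 others (adjusted p up to 0.58 over these fits). The count of lower members was 2 without lung 2 and 1 without lung 3. Finer clustering divided the class into 75 cells with Agtr2 and Penk and 130 cells led by Cxcl13, Acta2 and Notch3. Nrp1 stood at 616 ± 103 and 686 ± 52.3 CPM in these, Sema5a at 42.4 ± 8.02 and 73.2 ± 17.2 CPM, and Sema5b at 0 CPM (up to 6.51 CPM allowed) and 27.7 ± 16.4 CPM. All 33 Sema5b UMIs of the class thus lay in the Cxcl13 cells.

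Matrix fibroblast-like cells were marked by Nrp2. Nrp2 stood at 29.0, 25 and 38.9 CPM, above all values of the other classes, which had means of 1.31 to 4.51 CPM (1.65 ± 0.20). Plxnd1 was called higher (29.6 ± 3.99 CPM, 0.51 ± 0.18, adjusted p = 0.0308), a call lost without lung 1 and without lung 2 (limma adjusted p up to 0.184), and without lung 3 Nrp2 no longer reached the level filter, so each lung left out gave 1 higher member. Median-of-ratios scaling moved the calls over all genes from 424 higher and 727 lower to 579 and 587, and left the members at 2 and 6. Sema6d at 8.84 ± 1.57 CPM, Sema3c at 2.58 CPM and Nrp1 were lower (-1.48 ± 0.16, -1.15 ± 0.20 and -0.79 ± 0.089; adjusted p 2.56e-08 for Sema6d and 6.33e-08 for Nrp1). Sema4b, Plxna2 and Sema4c were lower by 0.63 to 0.67 in log2, and the Plxna2 call was lost under 5 alternatives, among them without lung 2 and without lung 3. The Sema4b call was lost without lung 1 and the Sema3c call with a pseudocount of 1 CPM. Sema3c, Sema4b and Plxna2 passed the level filter only through Hhip-Ednrb myofibroblast-like cells, so their lower levels here are a description. Sema3a stood at 13.6, 13.7 and 6.8 CPM here, on 85 of the 119 mesenchymal UMIs, and was higher when genes from 1 CPM were tested (0.69 ± 0.16).

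**Figure D4:**
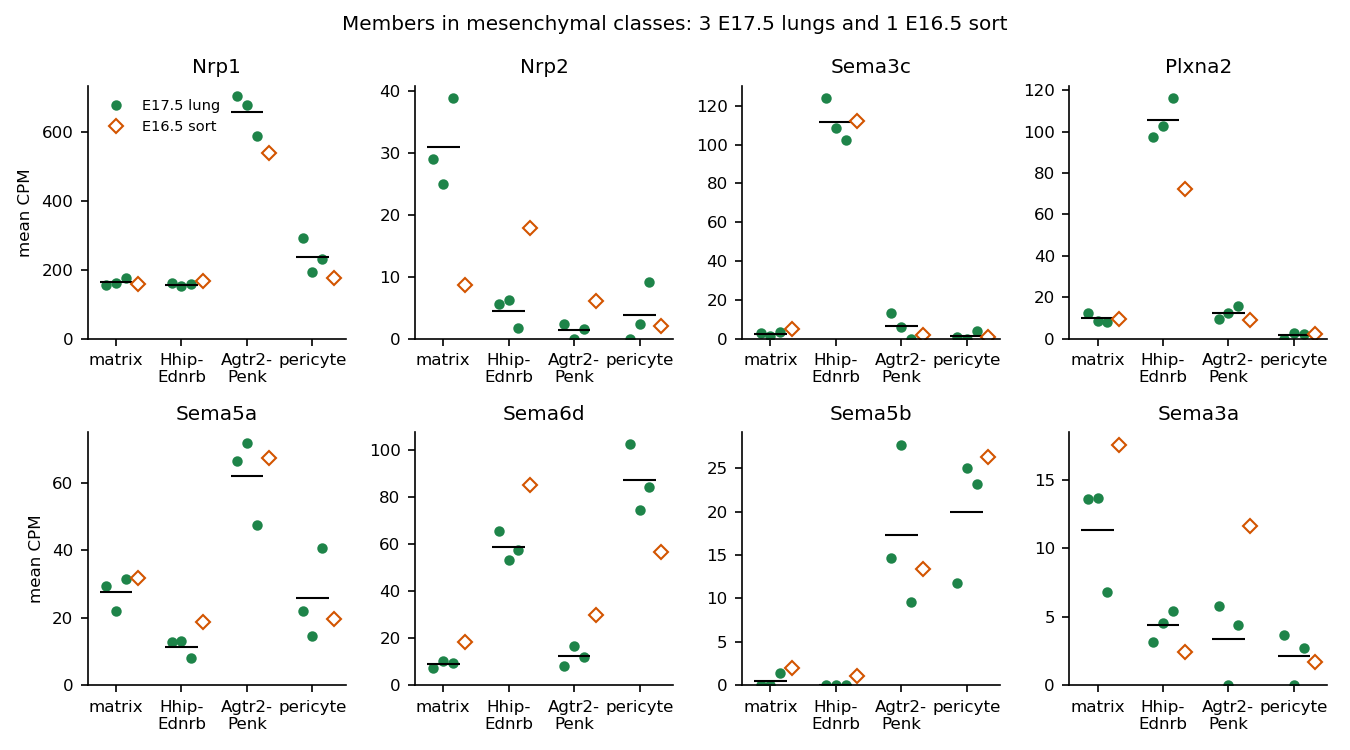
Mean CPM of 8 members in 4 mesenchymal classes, with 1 filled point for each E17.5 lung, a line at their mean and an open diamond for the E16.5 sort; axes start at 0. Nrp1 is highest in Agtr2-Penk-Dpep1 mesenchyme (labelled Agtr2-Penk) at both stages, and Nrp2 is at 8.62 CPM in the sort against 25 to 38.9 CPM in the lungs for matrix fibroblast-like cells.

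The E16.5 sort was set beside the lungs class by class. It is 1 sample, so there is no test; a member was counted apart where the sort lay 2-fold or more outside the range of the 3 lungs and the higher side reached 10 CPM. Intervals are exact 95% Poisson intervals on summed UMIs and cover counting error only. In mesenchyme as a whole 1 of 13 members was apart on the high side and none on the low side (all genes 2.10% and 4.92%). In matrix fibroblast-like cells none was higher and 1 of 13 lower (3.12% and 3.73%), in Hhip-Ednrb myofibroblast-like cells 1 of 14 higher and none lower (1.02% and 3.75%). In Agtr2-Penk-Dpep1 mesenchyme 1 of 15 was higher and none lower (1.22% and 3.14%), and in pericyte-like cells none of 13 was apart (0.599% and 3.59%). Without lung 2, these counts became 2 higher in matrix fibroblast-like cells, 2 higher in Agtr2-Penk-Dpep1 mesenchyme and 1 lower in pericyte-like cells, and without lung 3 the last was 1 as well.

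Nrp2 was apart in opposite directions in a pair of classes. In matrix fibroblast-like cells it stood at 8.62 CPM in the sort (22 UMIs, 8.001 CPM pooled, interval 5.01 to 12.1) against 29.0, 25 and 38.9 CPM in the lungs. In Hhip-Ednrb myofibroblast-like cells it stood at 17.9 CPM (176 UMIs, 17.1 CPM pooled, 14.6 to 19.8) against 1.76 to 6.15 CPM. The sort's gate on αSMA-GFP acts on both classes, and its part in these differences was not tested. Sema5b was apart in mesenchyme as a whole, at 13.9 CPM (586 UMIs) against 2.35 to 6.49 CPM. Within the classes it was not: sorted pericyte-like cells held 26.3 CPM against 11.7 to 25 CPM, and sorted Agtr2-Penk-Dpep1 mesenchyme 13.4 CPM against 9.54 to 27.8 CPM. Sorted mesenchyme also held 137 cells led by Fabp4, Spon1 and Parm1, a cluster apart from its Agtr2-Penk-Dpep1 class, and these carried 68.9 CPM of Sema5b. In the lungs like cells lay inside that class: with all 4 samples clustered together, 130 of these 137 sorted cells and 80 of the 130 Cxcl13 cells of the lungs fell in 1 cluster, so the class holds unlike cells at the 2 stages. With the 137 cells joined to the sorted class, an alternative added after the data were seen, Sema5b stood at 33.2 CPM, Nrp1 at 536 CPM and Sema3a at 7.94 CPM, and no member was apart. Sema3a was apart in Agtr2-Penk-Dpep1 mesenchyme (11.7 CPM, 28 UMIs, 11.5 CPM pooled, 7.64 to 16.6) against 0 to 5.76 CPM for the class as named, and was not when all 4 samples were clustered together. In that clustering the sort had too few matrix fibroblast-like cells for a value.

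Some of the members highest in 1 mesenchymal class at E17.5 were highest in that class among the same 4 of the sort too (Sema3c, Plxna2, Nrp1 and Sema5a), and others were not. Nrp2 was higher in sorted Hhip-Ednrb myofibroblast-like than in sorted matrix fibroblast-like cells, and so were Sema4c (39.8 against 19.3 CPM) and Sema6d (85.1 against 56.6 CPM) than in sorted pericyte-like cells. Sorted Hhip-Ednrb myofibroblast-like cells had 112 CPM of Sema3c beside 112 ± 11.2 CPM at E17.5, and 4.66 CPM or less was found in the other 3 classes of the sort. Plxna2 there stood at 72.4 CPM, below the 97.5 to 116 CPM of the lungs by less than 2-fold. Nrp1 in Agtr2-Penk-Dpep1 mesenchyme stood at 540 CPM against 588.5 to 707.0 CPM, and at 529 CPM in the Fabp4-Parm1 cells, which the lungs' class partly includes. Sema6d in sorted mesenchyme stood at 55.5 CPM against 28.1 to 31.4 CPM, and Sema4c in pericyte-like cells at 19.3 CPM against 36.5 to 46.2 CPM, both under 2-fold from the nearest lung. In 54 cardiac muscle-like cells of the sort Sema3c stood at 237 CPM (101 UMIs, 234 CPM pooled, 191 to 284) and Nrp2 at 45.8 CPM (20 UMIs).

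Among immune cells, macrophage-like cells (1072 cells) were compared with monocyte-like cells (416 cells). Of 7 members tested, 2 were higher and 1 lower in macrophage-like cells, against 17.6% and 10.7% of 3347 genes. Sema4d stood at 20.5, 18.0 and 22.1 CPM in macrophage-like and 45.2, 46.6 and 49.5 CPM in monocyte-like cells, with no overlap (-0.92 ± 0.13, limma adjusted p = 5.16e-05). Nrp1 stood at 68.4, 75.0 and 59.3 against 44.8, 29.8 and 37.8 CPM (0.72 ± 0.13, adjusted p = 0.000682). Sema4b was called higher at 30.2 ± 2.11 against 15.9 ± 7.31 CPM (0.67 ± 0.15, adjusted p = 0.00346), a call lost without lung 2 (adjusted p = 0.0677). The count of higher members was 1 without lung 2 and 4 without lung 1, and median-of-ratios scaling moved the calls over all genes from 588 higher and 359 lower to 393 and 482. Sema4a did not pass the test (71.6 ± 7.70 against 66.9 ± 5.48 CPM).

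The macrophage-like class joins unlike clusters. In the 848 cells led by Plet1 and Ear2, Sema4a stood at 86.1 ± 8.83 CPM, Plxnd1 at 43.7 ± 1.53 CPM and Nrp1 at 35.5 ± 9.44 CPM. In the 224 cells led by C1qa, C1qc and Pf4, the same genes stood at 17.3 ± 9.43, 16.53 ± 1.13 and 188 ± 10.3 CPM, and Plxnb2 at 69.8 ± 7.97 CPM. The C1q cells gave 385 of the 882 Nrp1 UMIs of immune cells. Among monocyte-like cells, the 162 cells led by Plac8 and Ly6c2 held 94.6 ± 9.62 CPM of Sema4d and the 254 cells led by S100a4 and Ccr2 held 18.1 ± 3.94 CPM. Dendritic cell-like cells (67 cells) held 93.9 ± 13.2 CPM of Sema4a. Neutrophil-like cells (47 cells) gave Sema4d on 11 UMIs and Plxnc1 on 7 UMIs, too few to place.

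The 32 mesothelial cells (15, 1 and 16 a lung) held Plxnb2 at 148 CPM, Sema3c at 88.9 CPM, Sema6a at 72.3 CPM and Sema3d at 51.6 CPM. With 1 cell in lung 2, these are values only.

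The carriers of 4 known ligand and receptor pairs, chosen after their values were seen, were set side by side, and in these 4 they differed. Other partners shared a carrier: Sema3c and Plxna2 were both highest in Hhip-Ednrb myofibroblast-like cells. Sema3f, Sema3g and their receptor Nrp2 were all highest in endothelium by compartment, where Nrp2 overlapped with epithelium. By class Sema3g and Nrp2 differed. Sema3g had 85.5 CPM in arterial-like and 11.7 CPM in capillary plexus-like cells, and Nrp2 had 6.71 and 45.8 CPM. For Sema3e and Plxnd1 the carriers were AT1-like and airway secretory-like cells (65.6 ± 10.6 and 66.8 ± 21.9 CPM of Sema3e) and endothelium (144 ± 8.82 CPM of Plxnd1). For Sema7a the carriers were arterial-like cells (115 ± 27.1 CPM) and Car4-positive capillary cells (132 CPM, on 60 cells). For its partner Plxnc1 they were macrophage-like, Hhip-Ednrb myofibroblast-like and matrix fibroblast-like cells (18.5 ± 5.44, 16 ± 5.01 and 15.7 ± 0.623 CPM of Plxnc1). For Sema4d and Plxnb1 they were monocyte-like cells (47.1 ± 2.21 CPM of Sema4d) and airway secretory-like and AT1-like cells (42.3 ± 19.4 and 19.8 ± 3.56 CPM of Plxnb1). For Sema6a and Plxna2 they were endothelium (73.1 ± 4.08 CPM of Sema6a) and Hhip-Ednrb myofibroblast-like cells (106 ± 9.66 CPM of Plxna2). RNA levels of this kind do not measure binding or signalling.

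Other genes of the pathway were read from lists of 16 co-receptors and other receptors, 36 plexin effectors and regulators, and 39 further axon guidance cues and receptors. In endothelium 6 of 9 co-receptors tested were higher (66.7%) and 2 lower (22.2%), beside 52.0% and 27.1% of all genes. The higher ones were led by the VEGF receptors Kdr (323 ± 19.3 CPM against a mean of 6.43 CPM, log2 difference 4.36 ± 0.072) and Flt1 (220 ± 16.4 against 8.82 CPM, 3.70 ± 0.079). The median log2 difference of the 9 was 0.50 where that of all genes was 0.16. Of 27 effectors 59.3% (16) were higher and 37.0% (10) lower, beside 52.0% and 27.1% of all genes, and among the higher were Dpysl3 and the kinase Fyn (2.34 ± 0.066 and 2.25 ± 0.068). In immune cells 2 of the 9 co-receptors were higher (22.2%) and 7 lower (77.8%), beside 29.4% and 57.0% of all genes. Tyrobp, an adaptor of Trem2, and Trem2 itself were the 2 that were higher (5.05 ± 0.063 and 3.51 ± 0.079). Of 20 further guidance genes, 19 were lower in immune cells and none higher, beside 57.0% and 29.4% of all genes (median -1.13, all genes -0.26). In mesenchyme 13 of those 20 were higher and 5 lower, beside 41.0% and 36.0% of all genes (median 0.90, all genes 0.03). The higher ones were led by the Slit receptor Robo2 (75.8 ± 0.348 against 1.43 CPM, 2.91 ± 0.065), Epha3 (2.58 ± 0.068) and the ligand Slit2 (2.35 ± 0.068). In epithelium 33.3% of the 27 effectors (9) were higher and 55.6% (15) lower, beside 26.3% and 49.7% of all genes, with Mical2, an actin oxidase downstream of plexins, highest by size (41.7 ± 6.12 against 10.8 CPM, 1.37 ± 0.083).

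Within compartments the lists were read in the same way. In AT1-like against AT2-like cells 7 of 21 effectors were higher (33.3%, all genes 21.7%) and 1 lower. Their median was 0.17 and that of all genes 0.02. Dpysl2, the collapsin response mediator that acts downstream of Sema3a, led the higher ones at 567 ± 26.7 against 115 ± 13.2 CPM (2.21 ± 0.068, limma adjusted p = 1.1e-17). Co-receptors gave 2 higher of 6 (33.3%, all genes 21.7%) and 1 lower, with Met lower (6.72 ± 2.10 against 16.6 ± 2.67 CPM, -0.67 ± 0.12). In arterial-like cells 5 of 12 further guidance genes were higher and none lower, beside 6.91% and 6.79% of all genes. The higher ones were led by Efnb2, the arterial ephrin (215 ± 24.1 against 54.0 ± 7.66 CPM, 1.81 ± 0.16). Of 22 effectors 7 were lower (31.8%) and 2 higher (9.09%). In the mesenchyme, Hhip-Ednrb myofibroblast-like cells were higher for the Slit receptors Robo2 (151 ± 19.9 against 31.6 CPM, 2.23 ± 0.15) and Robo1 (80.0 ± 3.23 against 19.1 CPM, 1.80 ± 0.21). Matrix fibroblast-like cells were higher for Slit2 (144 ± 9.68 against 20.6 CPM, 2.44 ± 0.15) and lower for Mical2 (1.52 against 38.5 CPM, -2.02 ± 0.17). Pericyte-like cells had 12 of 20 further guidance genes lower and 2 higher, beside 18.2% and 20.0% of all genes (median -0.91, all genes 0.02). Robo2 stood there at 5.90 ± 2.54 CPM (-2.22 ± 0.15), and the collagen receptor Itga1 led their co-receptors (152 ± 21.0 against 14.6 CPM, 2.74 ± 0.16). Between macrophage-like and monocyte-like cells 3 of 16 effectors were higher (18.8%) and 5 lower (31.2%), none past 2-fold. All genes gave 17.6% higher and 10.7% lower, so the higher share was near that of all genes.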

How the data were processed

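Single-cell RNA-seq was read from 4 deposited tables, 1 for each library. The tools named in the submitters' processing notes are Seurat 3.0.0 and Cell Ranger 1.3.1, with no role given; a genome build was not given in the sources used here. As for units, the authors deposited signal values that are linear and normalized: each cell's values sum to the median UMI total of its library. All values were whole multiples of the cell's smallest value (100% within a tolerance of 0.01), so UMI counts were recovered. The 3 lung libraries held 20347458 to 23996253 UMIs and the sort 41038008. The design had assumed counts, and the tests follow the deposited unit.

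Called doublets were removed (1.00% to 1.59% of cells). Genes were divided into 10399 for clustering (scanpy 1.11.5, 2000 variable genes, 30 components, Leiden resolution 1) and 10275 held out, which include all members and pathway genes. Classes needed 20 cells in every lung. limma 3.58.1 in R 4.3.3 was run on log2(mean CPM + 10) with a trend and the lung as block, since classes of a comparison come from the same animals. Same-lung deviations had a mean correlation of 0.269 across compartments and 0.0929 across mesenchymal classes. Benjamini-Hochberg adjustment covered all held-out genes of at least 10 CPM, at a threshold of 0.05. The tests were also run on simulated data, whose results are not given here. edgeR 4.0.16 on summed recovered UMIs was an alternative.

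Members reaching 10 CPM in any class were described, those under 10 CPM outside their highest class without a p, with full statistics for up to 8 called members with the largest difference per comparison and up to 3 pathway genes per direction. Members and lists were chosen with earlier results of these data known. The Car4-positive comparison was not run because 1 lung held 16 such cells, and the arterial comparison was added after the clusters were seen. Intervals cover counting error only, since a UMI total samples the molecules of a cell.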

Additional observations from a re-analysis of the deposited data

How the results depend on the processing

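Of 98 member calls, 81 held under every alternative that gave a value, 14 were lost under at least 1 and 3 changed direction under at least 1. Of the 81, 80 had a value under every alternative; Nrp2 in matrix fibroblast-like cells had 9 of 11, being under the level filter without lung 3 and at the finer clustering. Testing genes from 1 CPM upward brought in the low members and gave, of 31 members, 12 higher and 14 lower in epithelium (all genes 26.5% and 44.3%), 10 and 17 in endothelium (43.1% and 30.4%), 14 and 14 in mesenchyme (38.3% and 34.0%) and 6 and 23 in immune cells (25.3% and 57.9%). Of 27 members it gave 4 higher and 9 lower in matrix fibroblast-like cells (7.57% and 12.8%), 6 and 6 in Hhip-Ednrb myofibroblast-like cells (14.5% and 8.85%), 5 and 4 in Agtr2-Penk-Dpep1 mesenchyme (9.41% and 9.58%) and 6 and 6 in pericyte-like cells (15.6% and 14.6%). Members under 1 CPM outside their highest compartment, such as Sema3d, Sema3g, Sema4f and Sema5b, passed only through that compartment. The counts over 31 members are therefore a description. In epithelium 4 members were lower with a pseudocount of 1 CPM and 3 by edgeR, and in Agtr2-Penk-Dpep1 mesenchyme 2 were lower by edgeR. Clustering at resolution 2 gave 1 higher in matrix fibroblast-like and 4 higher in macrophage-like cells, and leaving out cells of over 10% mitochondrial UMIs left 1 lower in arterial-like cells. With each lung left out in turn, the counts ran from 1 to 1 higher in matrix fibroblast-like cells, from 1 to 4 lower in Agtr2-Penk-Dpep1 mesenchyme, from 2 to 4 lower in pericyte-like cells, from 1 to 2 lower in arterial-like cells and from 1 to 4 higher in macrophage-like cells. In the sort the same gave 0 to 2 higher in matrix fibroblast-like cells, 1 to 2 higher in Agtr2-Penk-Dpep1 mesenchyme and 0 to 1 lower in pericyte-like cells.

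At 1.5-fold in place of 2-fold, the sort had 2 members higher and 2 lower in mesenchyme, 3 higher in matrix fibroblast-like cells, 3 higher in Agtr2-Penk-Dpep1 mesenchyme and 1 lower in pericyte-like cells. Summed UMIs, and likewise keeping doublets, gave 1 higher in matrix fibroblast-like cells (Sema3d), keeping doublets gave 2 higher in Agtr2-Penk-Dpep1 mesenchyme, and clustering all 4 samples together, or joining the sorted Fabp4-Parm1 cells to that class, gave 0 there. By edgeR, Sema6a and Nrp1 in epithelium changed sign, to 0.18 and 0.084 (edgeR adjusted p = 0.121 for Nrp1). Sema3a in mesenchyme changed sign to 0.52 with a pseudocount of 1 CPM and to 1.08 by edgeR. The cause was not tested. The fit without the lung as a replicate block gave the same member counts in every comparison, such as 7 higher and 7 lower in epithelium. Depth limits members under about 10 CPM, and classes of under 100 cells give values on few UMIs.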
